A study of Mus musculus with 21 samples.

Results

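Small nucleolar RNA (snoRNA) genes were followed in the mouse embryonic pancreas as it was sorted, on each of 4 embryonic days, by a fluorescent Foxa2-Venus Fusion (FVF) protein. Members were the genes whose platform annotation gave exactly 1 symbol starting with Snora or Snord and a digit. Of 19296 genes measured, 50 met this rule: 30 C/D box genes (Snord) and 20 H/ACA box genes (Snora), taken from 52 probe sets, with the probe set of highest mean used where a gene had several. A further 21 probe sets carried several symbols that included a snoRNA, and none of these is named here.

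The embryos were of a mixed C57-Bl6/SV129/CD1 background, and every group came from animals described in the same way. FVF+ and FVF- cells were hybridised at E12.5 (3 and 2 arrays), E13.5 (2 and 2 arrays), E14.5 (3 and 3 arrays) and E15.5 (3 and 3 arrays), which gave 11 FVF+ and 10 FVF- arrays. The design text calls these biological replicates. Whether they came from separate embryos or litters is not given, so a p-value speaks only for the spread among these arrays. The labels carry array codes that rose with the day; what the codes mark is not given, and day and code cannot be told apart, but each day held both sorts. All values below are deposited log2 signals, a difference of 1 is 2-fold, and the level of 1 probe set cannot be set against that of another. Whether a signal came from the mature snoRNA or from a longer precursor was not tested.

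SnoRNAs are short noncoding RNAs of the nucleolus that pair with ribosomal RNA. C/D box snoRNAs guide ribose methylation and H/ACA box snoRNAs guide pseudouridylation, each within a particle of core proteins, and a few members act in cutting the ribosomal RNA precursor instead. Most mammalian snoRNAs are released from introns of host genes, many of which encode ribosomal proteins or translation factors, and a cell type that makes much protein, as the developing acinar cell does, needs a large supply of ribosomes.

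The span of another gene held 49 of the 50 snoRNA genes in the RefSeq gene table of GRCm38.p6. The table gives no strand for snoRNAs, so hosts were assigned by span alone. Snord118 (also called U8), which acts in processing of the large-subunit ribosomal RNA precursor and is transcribed as a gene of its own, had no host. The 49 lay in 43 genes, counting both where 2 spans held a snoRNA gene. Hosts with 2 snoRNA genes included Snhg3, Snhg12, Rps3a1, Rps3, Rpl13a, Rack1, Ncl and 2410006H16Rik, and no host held 3.

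Many snoRNA hosts carry a terminal oligopyrimidine start, an unbroken run of C and T at the first transcribed bases that is a hallmark of translation-machinery genes. The windows printed here run from 20 bases before to 10 bases from the annotated RefSeq start (GRCm38.p6, 5′ to 3′ on the host's strand). Capitals mark the unbroken run of C and T that covers the start, and the hosts of snoRNA genes described below were chosen with and without such a run to show how they differ.
Rack1, host of Snord95 and Snord96a, chr11:48800340-48800369, plus strand: tccggcggaggccgCTCTTTCTTTTTCTCC
Rpl27a, host of Snora3, chr7:109519175-109519204, plus strand: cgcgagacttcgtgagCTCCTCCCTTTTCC
Rplp2, host of Snora52, chr7:141447631-141447660, plus strand: cccactgcgtcagcgTCTTCCTTTCgccgc
Snhg12, host of Snora16a and Snora44, chr4:132308658-132308687, plus strand: gtgcaggccgttctcagTCCTTTCTCgctt
2410006H16Rik, host of Snord49a and Snord49b, chr11:62602857-62602886, plus strand: ggcgctcacgcgccgTCTTTCTCTgcggcc
Gm36220, host of Snord104, chr11:106500895-106500924, plus strand: ggccacacgtccattccggCCTCTTatcga
Rps3, host of Snord15a and Snord15b, chr7:99483700-99483729, minus strand: gaacacttgcaagggtcgccgcgctgcgcg
Eef2, host of Snord37, chr10:81176611-81176640, plus strand: cgacctataaaaggccgggcgttgacgtca
The first 6 windows hold a run of 6 to 16 pyrimidines over the start, and the windows of Rps3 and Eef2 hold none at the annotated position. Of the 43 host genes, 31 were in the RefSeq table of start sites. A run of at least 5 covered a start in 11 of these 31 hosts (35.5%), against 11.8% of the 27025 genes in that table. Bases before the start count toward a run, so a counted run may hold few transcribed bases, as in Rpl39 and Tcp1. The count is thus not one of terminal oligopyrimidine starts. It is a description of the annotated starts, with no test.

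The sorts matched their labels on marker genes. Foxa2 was 2.91 ± 0.10 (SE) higher in FVF+ cells over the 4 days, and all 5 epithelial, 3 endocrine and 3 acinar markers measured were higher there too. All 5 mesenchymal, 4 endothelial, 4 macrophage and 3 red blood cell markers were lower in FVF+ cells. The mean of the mesenchymal markers ran from 7.37 to 8.97 on FVF+ arrays and was 11.41 or above on every FVF- array, which thus carried markers of several cell types whose part in any snoRNA difference was not tested. In such bulk samples, fewer cells of a type and less RNA per cell cannot be told apart. Across all genes, arrays of 1 group correlated at 0.985 to 0.997 and arrays of different sorts at 0.889 to 0.941. Across the 50 snoRNA genes alone the ranges came closer together, 0.958 to 0.994 within a group and 0.921 to 0.988 between sorts.

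SnoRNA signals varied between replicates more than most genes did. The median within-group standard deviation (SD) was 0.33 over the 50 snoRNA genes and 0.14 over all genes, and 49 of the 50 lay above the all-gene median. H/ACA genes (median SD 0.43) varied more than C/D genes (0.32). The 296 microRNA genes, picked by symbol and including the host transcripts Mir17hg, Mir100hg and Mir99ahg, had a median SD of 0.15. The 24 measured hosts had 0.13. The microRNA signals were dimmer, with array medians from 6.585 to 7.185 beside 9.655 to 11.015 for snoRNA genes. Host signals were brighter, with array medians from 12.355 to 12.86. These spreads are thus not compared at like levels. The 10 other small RNA genes measured had a median SD of 0.30. They were Rmrp, Rn7sk, Rnu3a, Rnu7, Rnu12, Scarna8, Scarna13, Scarna17, Terc and Vaultrc5. Rnu3a is itself a processing snoRNA, so the list is not a class apart from snoRNAs. The widest spread belonged to Snora33 (SD 0.86), Snora75 (0.85), Snora3 (0.71) and Snord118 (0.70), and the narrowest to Snord73a (0.14) and Snord8 (0.17).

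The replicate deviations of different snoRNA genes went up and down together. The mean pairwise correlation of deviations from the group mean was 0.37 over the 50 genes, 0.57 within the H/ACA genes and 0.29 within the C/D genes, against 0.01 over all genes, 0.14 over the hosts and 0.32 over the other small RNA genes. Of 1225 pairs of snoRNA genes, 1081 had a correlation above 0. For 36 genes the correlation with the mean of the other members was above 0.5, and for 13 above 0.8, led by Snora62 (0.92) and Snord15a (0.90). Snord96a (-0.21) and Snord61 (-0.01) did not follow the others. These are descriptions over 21 arrays that share 8 group means, with no p-value.

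The shared movement set whole arrays apart. At E13.5, FVF+ replicate 1 was above FVF+ replicate 2 for 48 of 50 snoRNA genes, with a median gap of 0.73, while the median gap was 0 over all genes, -0.04 over hosts and 0.40 over other small RNA genes. Among the widest gaps, Snora75 read 10.44 and 7.94 on these arrays, Snora33 11.49 and 8.91, and Snora3 13.82 and 11.63. At E14.5, FVF- replicate 2 was above FVF- replicate 1 for 45 of the 50. Over the 21 arrays the mean deviation of the snoRNA genes correlated at 0.84 with that of the other small RNA genes, at 0.35 with that of microRNA genes, at -0.09 with that of the hosts and at -0.42 with that of all genes. What moved the small RNA signals between replicates was not tested.

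**Figure D1:**
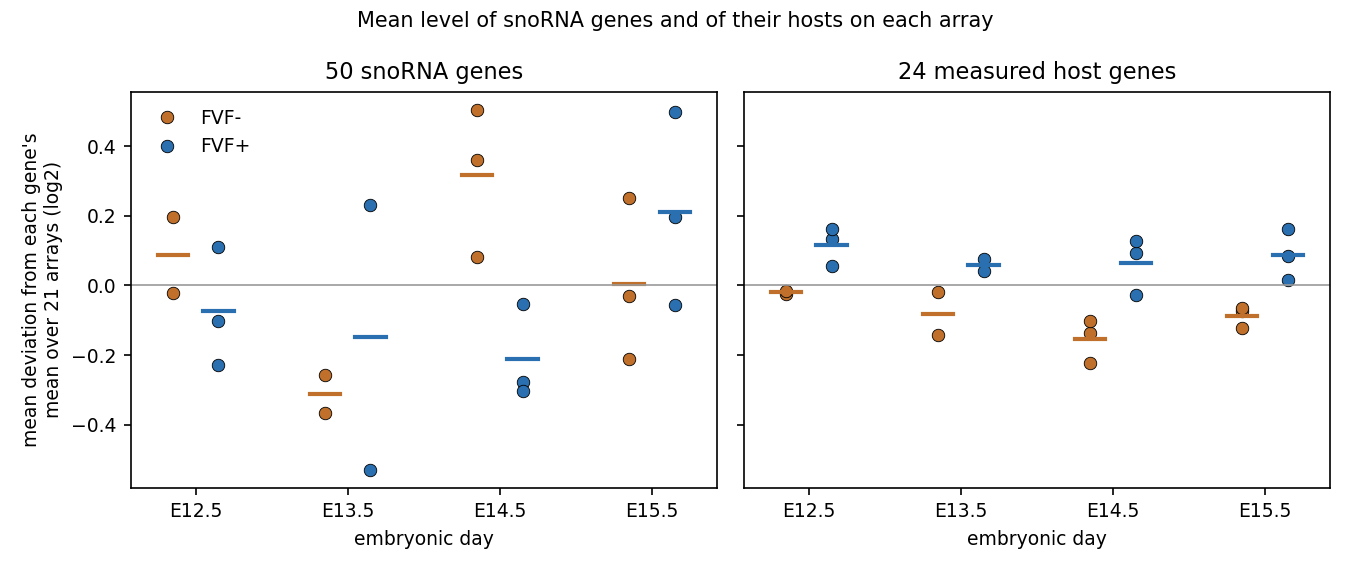
Mean deviation of the 50 snoRNA genes (left) and of the 24 measured host genes (right) from each gene's mean over 21 arrays, in log2 units, by embryonic day; each point is 1 array and bars are group means. The FVF+ E13.5 arrays lie at 0.23 and -0.53 for snoRNA genes and at 0.08 and 0.04 for hosts, and the 3 FVF- E14.5 arrays lie at 0.08, 0.50 and 0.36 for snoRNA genes.

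SnoRNA genes of the same host moved together to very different degrees. The correlation of replicate deviations was 0.99 for Snora73a and Snora73b of Snhg3, 0.95 for Snord33 and Snord35a of Rpl13a, 0.87 for Snord15a and Snord15b of Rps3 and 0.83 for Snora16a and Snora44 of Snhg12. It was 0.69 for Snord49a and Snord49b of 2410006H16Rik, 0.34 for Snord95 and Snord96a of Rack1 and 0.33 for Snord73a and Snord73b of Rps3a1. It was lowest, at 0.12, for Snora75 and Snord82 of Ncl. Snora73a and Snora73b, which act in cutting the small-subunit ribosomal RNA precursor, are near-identical copies, as other lettered pairs can be, and probes may not tell such copies apart.

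The first comparison asked which snoRNA genes differed between FVF+ and FVF- cells over the 4 days. Of 50 snoRNA genes, 6 were higher and 8 lower in FVF+ cells and 36 were not called at an adjusted p under 0.05, beside 55.7% of all genes called in either direction (30.5% higher and 25.2% lower). The median difference was -0.08, against 0.03 over all genes, and 13 of the 50 were above 0. None of the 14 called differed 2-fold. The share of all genes that did was not counted. C/D genes supplied 4 of the 6 higher and 7 of the 8 lower calls.

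The genes lower in FVF+ cells were led by Snord104, a methylation guide in the host Gm36220. Its signals at E12.5 were 13.01 and 12.86 on FVF- arrays and 12.18, 12.33 and 11.95 on FVF+ arrays. At E14.5 they were 12.94, 13.37 and 13.62 on FVF- arrays and 12.20, 12.58 and 12.08 on FVF+ arrays. The sorts did not overlap on either day, and the mean difference over the days was -0.65 ± 0.14 (SE, adjusted p = 0.000591).

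Snord37, in the translation factor gene Eef2, differed by -0.56 ± 0.14 (adjusted p = 0.0024) and Snord35b by -0.50 ± 0.15 (adjusted p = 0.0071). Snord61, in the splicing regulator gene Rbmx, differed by -0.32 ± 0.10 and Snord95, in Rack1, by -0.26 ± 0.08. The other lower calls, Snord15b (-0.42), Snord82 (-0.25) and Snora7a (-0.21), each lost the call when arrays were centred on their medians.

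The 6 genes higher in FVF+ cells were Snord14e, Snord16a, Snord22, Snord53, Snora41 and Snora70. Snord14e, a C/D gene of the U14 family in the chaperone gene Hspa8, was higher by 0.41 ± 0.13 (adjusted p = 0.0093). Snord22 (U22), which acts in processing of the small-subunit ribosomal RNA precursor and lies in Snhg1, was higher by 0.32 ± 0.08 (adjusted p = 0.0031). Snord53, in the ribosome biogenesis gene Wdr43, was higher by 0.29 ± 0.10. The differences of Snord16a in Rpl4 (0.34), Snora41 in Eef1b2 (0.28) and Snora70 in Rpl10 (0.23) had adjusted p-values of 0.0361, 0.0484 and 0.0245, and Snord16a lost its call under quantile and cyclic loess normalization. Snora75, in Ncl, had the largest mean difference of any snoRNA gene, 0.76 ± 0.33, but did not pass (adjusted p = 0.0552).

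The count of lower calls turned on single arrays. It was 14 without FVF+ E13.5 replicate 1, 4 without FVF- E13.5 replicate 1, and 5 without FVF+ E13.5 replicate 2, FVF+ E14.5 replicate 1 or FVF+ E15.5 replicate 3. The count of higher calls was 2 without FVF+ E13.5 replicate 1, and 3 under cyclic loess normalization.

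**Figure D2:**
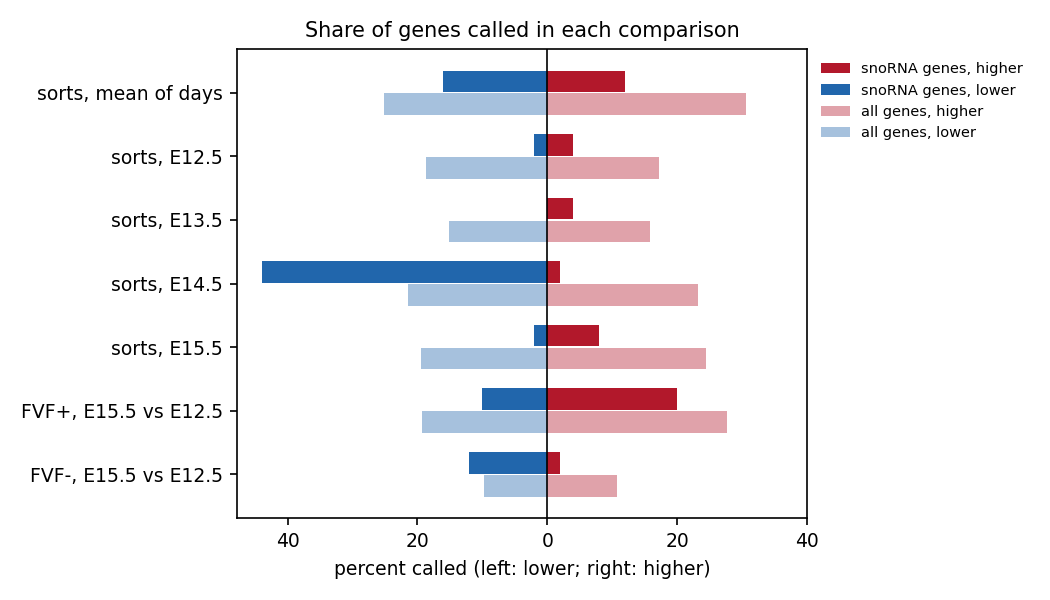
Share of the 50 snoRNA genes (dark bars) and of all 19296 genes (pale bars) called by limma at an adjusted p under 0.05 in 7 comparisons, with lower calls to the left and higher calls to the right of 0, in percent. At E14.5, 44% of snoRNA genes were lower in FVF+ cells beside 21.5% of all genes; in the other sort comparisons the snoRNA shares lie below those of all genes.

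Taken day by day, E14.5 differed in count from the other days. At E14.5, 22 of the 50 snoRNA genes were lower in FVF+ cells and 1 was higher, beside 44.6% of all genes called either way (23.1% higher and 21.5% lower). The median difference was -0.54, against 0.00 over all genes, and 43 of the 50 were below 0. Of C/D genes 16 of 30 were called lower (53.3%), and of H/ACA genes 6 of 20 (30%). The median difference was -0.635 for H/ACA genes (19 of 20 below 0) and -0.47 for C/D genes (24 of 30 below 0). The call rates thus do not rank the box classes by size of difference. Replicate spread was wider for H/ACA genes (median SD 0.43) than for C/D genes (0.32).

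Snora62, an H/ACA gene in the small-subunit protein gene Rpsa, read 8.66, 9.21 and 9.06 on FVF- arrays and 7.78, 8.05 and 7.77 on FVF+ arrays at E14.5. The 2 sorts did not overlap, and the difference was -1.11 ± 0.26 (adjusted p = 0.0016). Snord15b, in Rps3, read 10.99, 11.60 and 11.27 on FVF- arrays and 10.13, 10.70 and 9.70 on FVF+ arrays. All 3 FVF- arrays were again above all 3 FVF+ arrays, with a difference of -1.11 ± 0.31 (adjusted p = 0.0070). Snord104 differed by -1.02 ± 0.26 (adjusted p = 0.0031). These were the only 3 snoRNA genes called at 2-fold or more on that day. The share of all genes called at that cut was not counted, so this count has no baseline.

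The other 19 lower calls at E14.5 ranged from -0.95 for Snora44 to -0.40 for Snord8. They took in both copies of the processing snoRNA Snora73, at -0.89 each, the second snoRNA gene of Rps3, Snord15a (-0.87), and Snord35b (-0.86). Members with larger differences that did not pass were Snora33 (-1.26, adjusted p = 0.1066) and Snora3 (-1.13, adjusted p = 0.0779), whose replicate spread was among the widest. Snord22 was the only member higher, at 8.31, 8.55 and 8.31 on FVF- arrays and 8.71, 8.72 and 8.95 on FVF+ arrays. The sorts did not overlap for Snord22 either, with a difference of 0.40 ± 0.15 (adjusted p = 0.0405).

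The E14.5 count held under the other normalizations, at 22 with quantile, 24 with cyclic loess and 21 with median centring. It was 9 without FVF- replicate 2, 10 without FVF+ replicate 1 and 11 without FVF+ replicate 3, where calls over all genes went from 8604 to 7818, 7573 and 7530, and the higher call of Snord22 was lost without replicate 1 or 3 of either sort. Snora3 and Snora21 each had a second probe set, which gave -0.61 and -0.59 at E14.5 where those used gave -1.13 and -0.42.

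**Figure D3:**
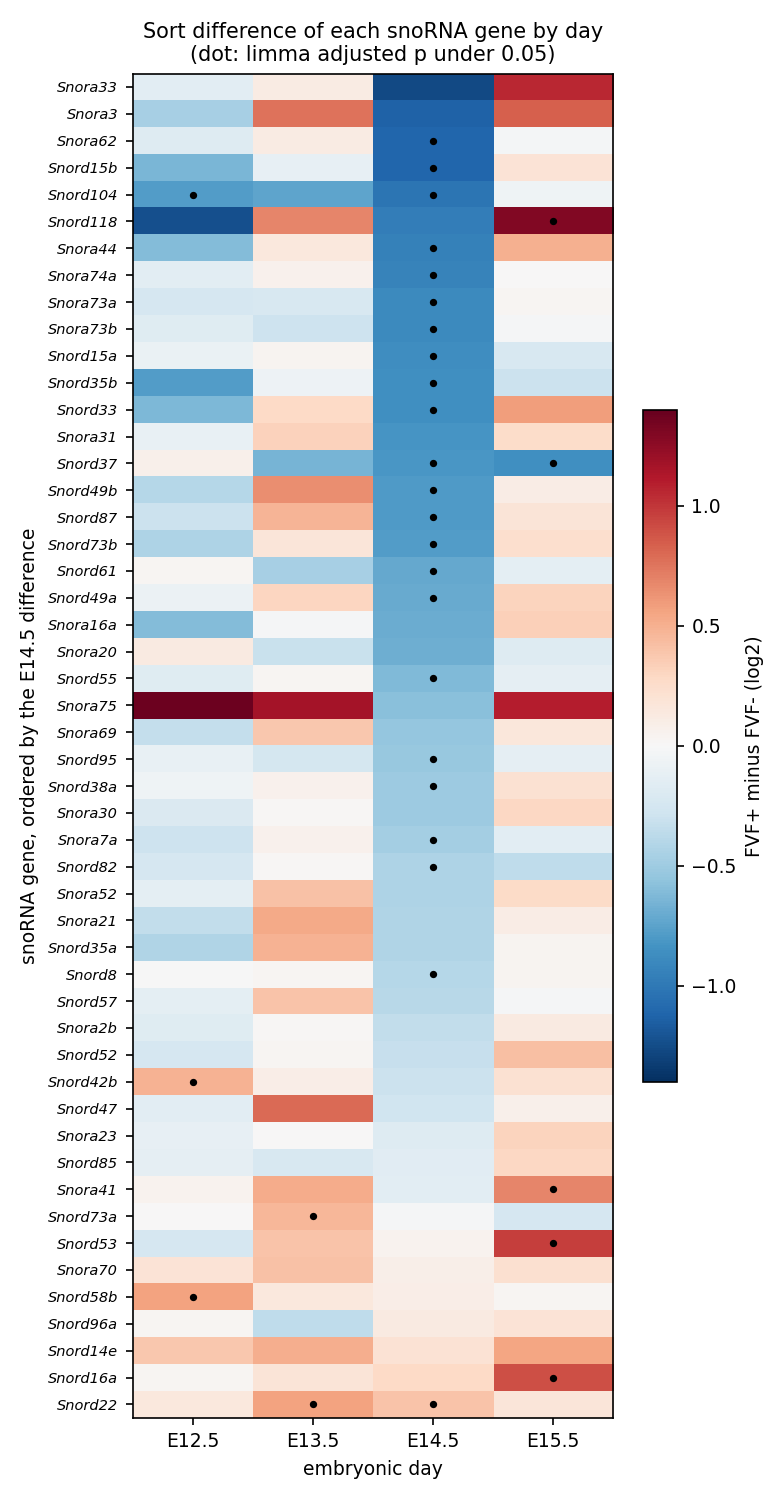
Difference between FVF+ and FVF- cells (log2, colour) for each of the 50 snoRNA genes on each day, ordered by the E14.5 difference; a dot marks an adjusted p under 0.05 in limma. The E14.5 column is blue for 43 of 50 genes, with 22 dots on the lower side and 1, for Snord22, on the higher side.

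The same 22 genes were not called together on any other day. At E12.5, 20 of the 22 were below 0 with a median of -0.21, and 1 was called, where 37 of all 50 members were below 0. At E13.5, 14 of the 22 were above 0 and none was called, where 38 of all 50 were above 0. At E15.5, 10 were above 0 and 11 below, with 1 called lower, where 35 of all 50 were above 0. Whether the difference between sorts itself changed between these days was not tested for E14.5.

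On the other 3 days few snoRNA genes were called. At E12.5, 2 were higher and 1 lower, beside 35.9% of all genes called either way (17.2% higher and 18.7% lower). Snord58b, in Rpl17, was higher by 0.56 ± 0.19 (adjusted p = 0.0269), Snord42b, in Rpl23a, by 0.49 ± 0.17 (adjusted p = 0.0294), and Snord104 was lower, at -0.78 ± 0.29 (adjusted p = 0.0422). Snord58b had the lowest mean signal of the snoRNA genes, 5.64 over all arrays. Without FVF+ E12.5 replicate 2, 3 members were lower, and without any other array of that day none was; the 2 higher calls became 0 without FVF- replicate 1 and 1 without any other.

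At E13.5, 2 snoRNA genes were higher and none lower, beside 30.9% of all genes called either way (15.8% higher and 15.2% lower), and 6 members had an unadjusted p under 0.05, as did 39.3% of all genes. Snord22 was higher by 0.56 ± 0.19 (adjusted p = 0.0288), with 8.34 and 8.25 on FVF- arrays and 8.99 and 8.73 on FVF+ arrays. Snord73a, in Rps3a1, was higher by 0.47 ± 0.14 (adjusted p = 0.0157). Its mean signal over all arrays was low, 6.57 beside a median of 8.83 over all genes. Higher calls numbered 8 without FVF+ replicate 2, 5 without FVF- replicate 2, 1 without FVF- replicate 1 and 0 without FVF+ replicate 1, and lower calls 3 without FVF- replicate 2.

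At E15.5, 4 snoRNA genes were higher and 1 lower in FVF+ cells, beside 43.9% of all genes called either way (24.4% higher and 19.5% lower). Snord53 read 12.87, 12.31 and 12.16 on FVF+ arrays and 11.56, 11.46 and 11.43 on FVF- arrays. All FVF+ arrays were above all FVF- arrays, with a difference of 0.96 ± 0.19 (adjusted p = 0.000303). Snord16a followed the same order, with 11.12, 11.02 and 11.36 on FVF+ arrays and 10.03, 10.45 and 10.31 on FVF- arrays, a difference of 0.90 ± 0.25 (adjusted p = 0.0057).

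Snora41 was higher by 0.69 ± 0.21 (adjusted p = 0.0129). Snord118 was higher by 1.30 ± 0.50 (adjusted p = 0.0422), but its FVF- arrays (9.70, 11.65 and 10.87) overlapped its FVF+ arrays (12.87, 11.86 and 11.38), and its call was lost under quantile and cyclic loess normalization. Snord37 was the gene called lower, with 7.28, 7.58 and 6.78 on FVF+ arrays and 8.26, 8.13 and 7.82 on FVF- arrays, a difference of -0.86 ± 0.26 (adjusted p = 0.0123). The 4 higher calls were 2 without FVF- replicate 3 or FVF+ replicate 1. The lower call was lost without FVF- replicate 1 or FVF+ replicate 3, and 2 genes were lower without FVF- replicate 3. Over the 4 days, 20 of the 50 snoRNA genes were called on no day, 27 on 1 day and 3 on 2 days. The same split was not counted over all genes, so it does not set the snoRNA genes apart.

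**Figure D4:**
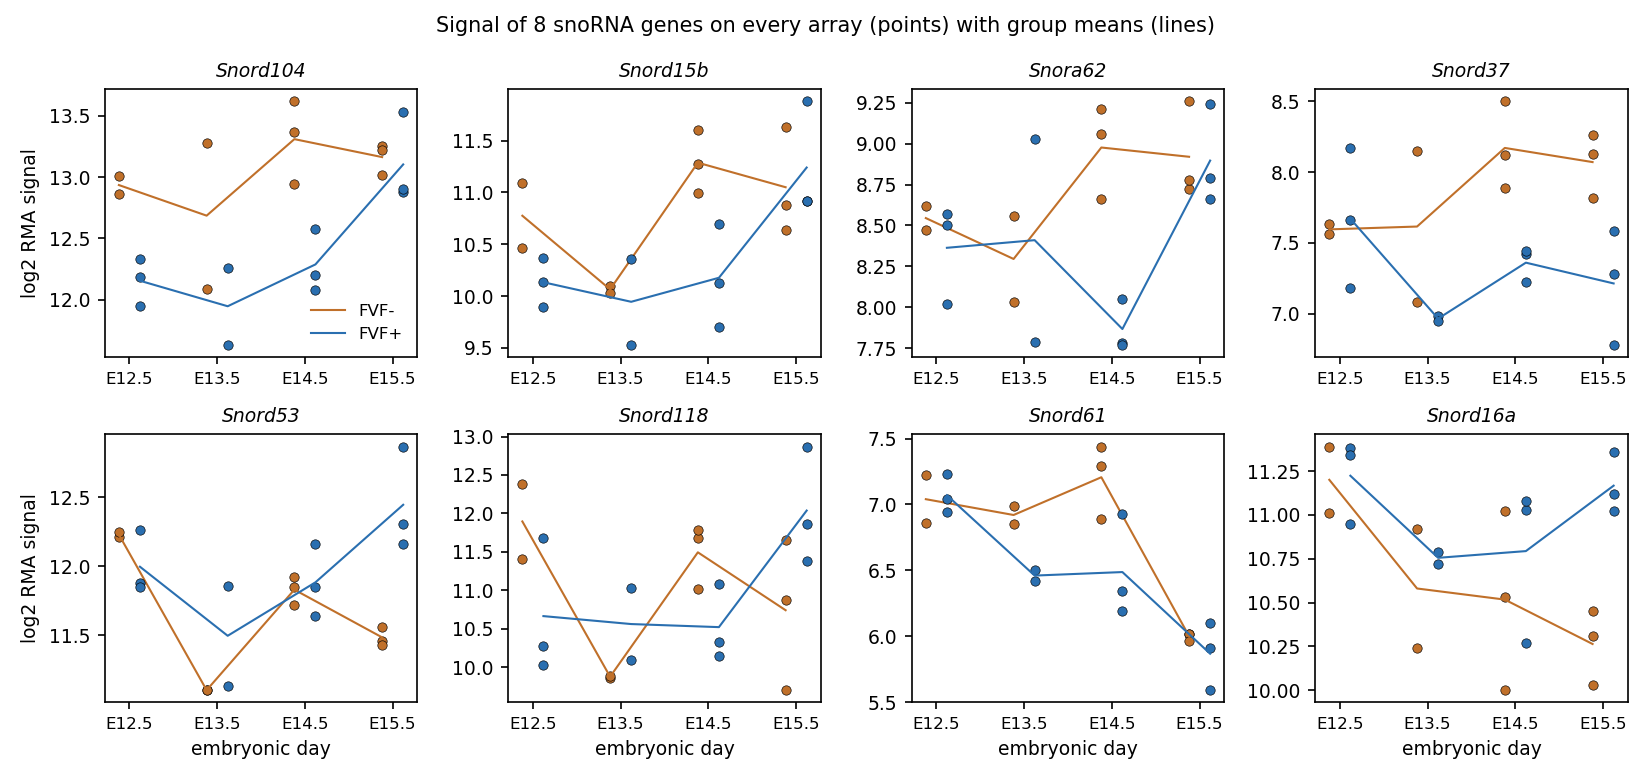
Deposited log2 signal of 8 snoRNA genes on every array (points) by embryonic day, with lines through the group means, for FVF- (orange) and FVF+ (blue) cells; each panel has its own axis, which does not start at 0. Snora62 and Snord15b separate the sorts at E14.5, Snord53 and Snord16a separate them at E15.5, and Snord61 ends below 6.2 in both sorts at E15.5.

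Change over time within the FVF+ epithelium was tested next. Between E12.5 and E15.5, 10 snoRNA genes rose and 5 fell in FVF+ cells, beside 46.9% of all genes called in either direction (27.6% higher and 19.3% lower). The median change was 0.39, against 0.09 over all genes. The 10 that rose were 5 H/ACA and 5 C/D genes, and all 5 that fell were C/D genes.

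Snord118 rose the most, from 10.28, 11.68 and 10.03 at E12.5 to 12.87, 11.86 and 11.38 at E15.5. The lowest E15.5 array was below the highest E12.5 array, and the change was 1.37 ± 0.50 (adjusted p = 0.0310). Snord15b rose from 10.14, 10.37 and 9.89 to 11.88, 10.92 and 10.92, a change of 1.11 ± 0.31 (adjusted p = 0.0085), with no overlap. The processing snoRNA genes Snora73a and Snora73b rose by 1.10 ± 0.35 and 0.99 ± 0.35 (adjusted p = 0.0168 and 0.0265). As near-identical copies they may be 1 signal.

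Snora44 (0.97), Snord104 (0.95), Snora21 (0.74), Snord87 (0.62), Snora7a (0.52) and Snord82 (0.51) made up the other rises. Snord104 read 12.18, 12.33 and 11.95 at E12.5 and 13.53, 12.88 and 12.90 at E15.5. On the last day 2 of its FVF+ arrays were below all 3 FVF- arrays (13.25, 13.22 and 13.02) and 1 was above them. Of 10 other small RNA genes 5 rose and none fell, among them Rnu3a (1.26 ± 0.46), Terc (0.62 ± 0.18), the telomerase RNA, and the vault RNA Vaultrc5 (1.74 ± 0.49).

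Snord61 fell the most, from 7.04, 6.94 and 7.23 at E12.5 to 6.10, 5.91 and 5.59 at E15.5. The days did not overlap, and the change was -1.20 ± 0.18 (adjusted p = 4.68e-05). The other falls were Snord58b (-0.57 ± 0.17), Snord85 (-0.52 ± 0.21), Snord22 (-0.44 ± 0.15) and Snord73a (-0.33 ± 0.11). Mean signals over all arrays were low for Snord61 (6.61), Snord73a (6.57) and Snord58b (5.64), beside a median of 8.83 over all genes. Whether changes at such low signals reflect the snoRNA itself was not tested. The rises turned on single arrays: 1 was called without FVF+ E15.5 replicate 1, 3 without FVF+ E12.5 replicate 3 and 17 without FVF+ E15.5 replicate 3. The falls numbered 2 without FVF+ E12.5 replicate 2, FVF+ E15.5 replicate 1 or FVF+ E15.5 replicate 3, and 3 without FVF+ E12.5 replicate 3. Calls over all genes, 9048 with every array, ran from 7090 to 8243 when an array was left out.

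Of the daily steps in FVF+ cells, calls came in the last. That step shares its FVF+ E14.5 arrays with the sort difference at E14.5, so those results are not independent. Between E14.5 and E15.5, 12 snoRNA genes rose and 3 fell, beside 25.6% of all genes (14.7% higher and 10.8% lower), with a median of 0.39 against 0.06 over all genes. Snord118 rose by 1.52 ± 0.50, Snora73a by 1.29 ± 0.35, Snora73b by 1.27 ± 0.35 and Snora62 by 1.03 ± 0.26. Snord58b (-0.74 ± 0.17), Snord61 (-0.62 ± 0.18) and Snord22 (-0.47 ± 0.15) fell. The rises numbered 2 without FVF+ E15.5 replicate 1, 3 without FVF+ E14.5 replicate 3 and 4 without FVF+ E14.5 replicate 1; the falls numbered 1 without either replicate 3, and 2 without FVF+ E14.5 or E15.5 replicate 1. Calls over all genes, 4931 with every array, ran from 2222 to 5687 when an array was left out.

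In the earlier FVF+ steps no member passed in limma. From E12.5 to E13.5, 0.00518% of all genes were called, and 6 snoRNA genes had an unadjusted p under 0.05, as did 9.71% of all genes. From E13.5 to E14.5, 8.85% of all genes were called (5.88% higher and 2.97% lower) and 3 snoRNA genes had an unadjusted p under 0.05, as did 24% of all genes. Without FVF+ E13.5 replicate 2, 1 snoRNA gene was called lower over the later of these steps.

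In FVF- cells 1 snoRNA gene rose and 6 fell between E12.5 and E15.5, beside 20.4% of all genes called either way (10.7% higher and 9.7% lower). Snord82, in the nucleolin gene Ncl, rose by 0.63 ± 0.19 (adjusted p = 0.0243). Snord61 fell from 6.86 and 7.22 to 6.02, 6.02 and 5.96, a change of -1.04 ± 0.20 (adjusted p = 0.0010). With the FVF+ value of -1.20, Snord61 was called lower in each sort. The values come from separate arrays, but both sorts share each day and its array codes. The falls are thus not shown to be independent.

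Snord52 (-0.99 ± 0.31), Snord16a (-0.94 ± 0.27), Snord85 (-0.94 ± 0.23), Snord53 (-0.75 ± 0.21) and Snora23 (-0.74 ± 0.22) made up the other falls. Snord16a read 11.39 and 11.01 at E12.5 and 10.03, 10.45 and 10.31 at E15.5, with no overlap. The 6 falls were 1 without FVF- E12.5 replicate 1 and 3 without FVF- E15.5 replicate 1. The rise of Snord82 was lost without FVF- E12.5 replicate 1 or 2 or FVF- E15.5 replicate 3, and 2 genes rose without FVF- E15.5 replicate 1. Calls over all genes, 3945 with every array, ran from 1995 to 3372 when an array was left out.

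In FVF- cells every daily step had called members. From E12.5 to E13.5, 2 members fell, beside 1.02% of all genes called (0.86% higher and 0.161% lower): Snord53 from 12.21 and 12.25 to 11.10 and 11.10 (-1.13 ± 0.23, adjusted p = 0.0235), and Snord73a (-0.61 ± 0.14, adjusted p = 0.0441). Neither was called without FVF- E12.5 replicate 1 or 2 or FVF- E13.5 replicate 1, and 1 gene was higher without FVF- E13.5 replicate 2; calls over all genes, 197 with every array, were 49, 4, 72 and 413 without these arrays in turn. From E13.5 to E14.5, 12 rose and none fell, beside 8.3% of all genes (5.68% higher and 2.62% lower), with a median of 0.59 against 0.04 over all genes.

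These rises included Snord33 in Rpl13a (1.49 ± 0.35), Snord35b (1.28 ± 0.30) and Snord49b in 2410006H16Rik (1.28 ± 0.30). Snord35b read 10.43 and 10.03 at E13.5 and 11.47, 11.65 and 11.42 at E14.5, without overlap. The 12 rises were 2 without FVF- E13.5 replicate 2, 5 without FVF- E14.5 replicate 1 and 6 without FVF- E14.5 replicate 2, and 7 under quantile normalization and 8 under cyclic loess. Calls over all genes, 1602 in this step, were 33, 423 and 1521 without the same 3 arrays. From E14.5 to E15.5, 5 fell and none rose, beside 6.49% of all genes (1.84% higher and 4.65% lower), led by Snord61 (-1.21 ± 0.18), Snord33 (-1.07 ± 0.31) and Snord52 (-1.03 ± 0.28); 2 fell without FVF- replicate 1 or 2 of E14.5 or replicate 1 or 3 of E15.5, where calls over all genes went from 1253 to between 298 and 1069. These steps share the E13.5 and E14.5 arrays, so their directions are not independent. The FVF- E14.5 arrays also enter the sort difference at E14.5, which is thus not independent of these steps.

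The difference between the sorts in their change from E12.5 to E15.5 was tested as an interaction. It was higher in FVF+ cells for 2 snoRNA genes and lower for none, beside 19.6% of all genes called (10.8% higher and 8.83% lower). Snord118 changed by 1.37 ± 0.50 in FVF+ cells and by -1.16 ± 0.56 in FVF- cells, the latter not called, and the difference of changes was 2.53 ± 0.75 (adjusted p = 0.0246). Its FVF- arrays were 12.38 and 11.41 at E12.5 and 9.70, 11.65 and 10.87 at E15.5. Snord53 changed by 0.45 ± 0.19 in FVF+ cells, not called, and by -0.75 ± 0.21 in FVF- cells, and the difference was 1.20 ± 0.28 (adjusted p = 0.0066). The call of Snord118 was lost without FVF- E12.5 replicate 1, FVF+ E12.5 replicate 1 or 3, FVF- E15.5 replicate 1 or FVF+ E15.5 replicate 1. Without FVF- E15.5 replicate 2, 4 snoRNA genes were called higher, and without FVF+ E12.5 replicate 1, 1 was called lower.

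Host and snoRNA signals could be set side by side for 24 snoRNA genes whose single host, 21 genes in all, was measured. The within-group SD of the snoRNA gene was larger than that of the host in 22 of the 24 pairs, with a median ratio of 3.02. The median correlation of replicate deviations between snoRNA gene and host was -0.04. Array medians were 12.355 to 12.86 over the measured hosts and 9.655 to 11.015 over all snoRNA genes. The spreads of these pairs are thus not compared at like levels. Snora33 had an SD of 0.86 and its host Rps12 0.15. Snora3 had an SD of 0.71 and Rpl27a 0.09. The exceptions were Snord73a (0.14, against 0.27 for Rps3a1) and Snord82 (0.23, against 0.27 for Ncl).

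**Figure D5:**
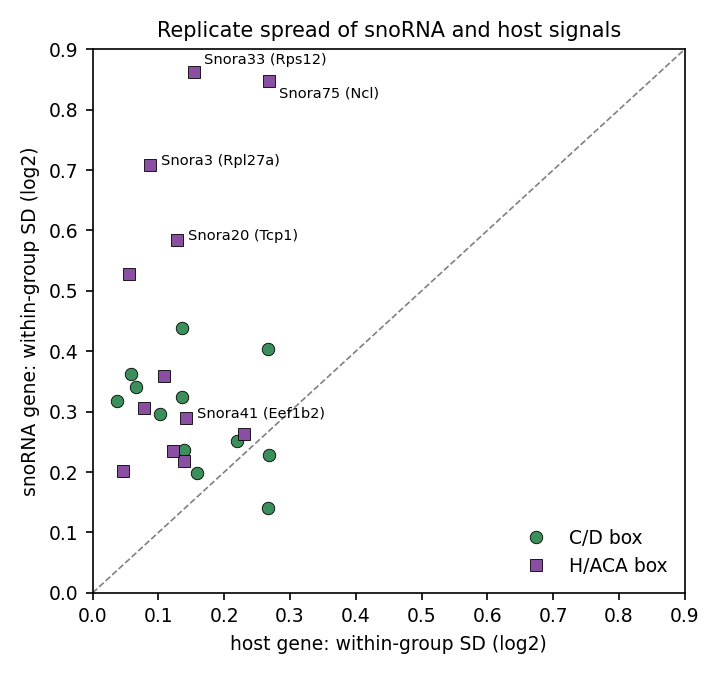
Within-group SD (log2) of 24 snoRNA genes against that of the host gene whose span holds them; circles are C/D and squares H/ACA genes, and the dashed line marks equal spread. In 22 of 24 pairs the point lies above the line, among them Snora33 (0.86) with Rps12 (0.15) and Snora3 (0.71) with Rpl27a (0.09). Host signals were brighter on the whole, so the spreads are not at like levels.

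Over the mean of the days, the median sort difference was -0.04 for these snoRNA genes and 0.16 for their hosts. Both were called higher in 4 pairs: Snora70 with Rpl10, Snord14e with Hspa8, Snord16a with Rpl4 and Snord53 with Wdr43. Snord82 (-0.25) and Ncl (0.70) were called in opposite directions. In 10 pairs the host alone was called, in 4 the snoRNA gene alone, and in 5 neither.

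At E14.5 the medians were -0.43 for the snoRNA genes and 0.22 for the hosts, and no pair was called in the same direction. Snord82 differed by -0.43 and Ncl by 1.08, Snora62 by -1.11 and Rpsa by -0.07, and Snord15b by -1.11 and Rps3 by 0.10. In FVF+ cells over time, 3 pairs were called in opposite directions, among them Snora21 (0.74) with Rpl23 (-0.29) and Snord82 (0.51) with Ncl (-0.66). Snord61 (-1.20) fell together with Rbmx (-0.66), and Snord15b (1.11) rose with Rps3 (0.30). None of 7 measured noncoding hosts, which included Snhg5, Snhg11, Snhg16, Snhg17 and Gas5, was called between sorts over the days. At E14.5, 2 of the 7 were lower in FVF+ cells, Gas5 (-0.47 ± 0.13) and Snhg17 (-0.60 ± 0.22), 6 of the 7 were below 0 and the median was -0.29, beside 21.5% of all genes called lower. In the last FVF+ step 3 of the 7 rose, Snhg17 (0.97 ± 0.22), Gas5 (0.50 ± 0.13) and Snhg11 (0.42 ± 0.15), and the median was 0.42, beside 14.7% of all genes called higher. Between E12.5 and E15.5 in FVF+ cells Snhg17 rose by 0.66 ± 0.22 and Rian fell (-1.38 ± 0.41), and in FVF- cells Snhg16 rose by 0.53 ± 0.16.

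The protein partners of snoRNAs were mostly higher in FVF+ cells. All 4 C/D core proteins were higher in FVF+ cells over the days: Nop58 (0.81 ± 0.13), the methyltransferase Fbl (0.41 ± 0.05), Snu13 (0.29 ± 0.05) and Nop56 (0.24 ± 0.05). All 4 H/ACA core proteins were higher too: the pseudouridine synthase Dkc1 (0.84 ± 0.14), Gar1 (0.45 ± 0.06), Nop10 (0.27 ± 0.07) and Nhp2 (0.23 ± 0.08).

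Over all genes in this comparison 30.5% were higher and 25.2% lower. Of 18 assembly and maturation factors 12 were higher (66.7%) and 1 lower, led by Naf1 (1.05 ± 0.11), an H/ACA assembly factor, and Nolc1 (0.60 ± 0.04), a nucleolar chaperone. Exosc10, a subunit of the RNA exosome, was lower at -0.15 ± 0.04. Of 20 ribosome biogenesis genes 13 were higher (65%) and none lower, among them Taf1d (0.82 ± 0.08), Myc (0.78 ± 0.07) and Ncl (0.70 ± 0.11). Medians over the lists were 0.35, 0.36, 0.24 and 0.33, beside 0.03 over all genes and -0.08 over the snoRNA genes.

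Over time in FVF+ cells 27.6% of all genes rose and 19.3% fell. Nop58 (-0.65 ± 0.24) and Nop56 (-0.23 ± 0.09) fell, as did Dkc1 (-0.94 ± 0.25), and no core protein rose. Of the assembly factors 2 rose and 8 fell, with Tgs1, the cap trimethylase, at -1.60 ± 0.20 and Naf1 at -0.87 ± 0.20. Ribosome biogenesis genes split 5 and 5, with Nle1 (0.67 ± 0.11) and Bop1 (0.63 ± 0.12) among the rises and the nucleolar protein genes Npm1 (-0.88 ± 0.14) and Ncl (-0.66 ± 0.20) among the falls. In FVF- cells, where 9.7% of all genes fell, Snu13 (-0.55 ± 0.10) was the core protein called lower, and 4 of 18 assembly factors and 2 of 20 ribosome biogenesis genes were called lower, the latter a share near that of all genes.

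Other small RNA genes, among them the processing snoRNA Rnu3a, were set beside the snoRNA genes. Over the days, Rmrp (-0.49 ± 0.08), the RNA of a nucleolar ribonuclease, and Scarna13 (-0.62 ± 0.12), of the Cajal body, were lower in FVF+ cells and Rnu7 (0.27 ± 0.08), the histone processing RNA, was higher. At E14.5 the median difference of the 10 genes was -0.49, beside -0.54 for the snoRNA genes and 0.00 for all genes. Of the 10, 2 were called lower (20%) and 1 higher (10%), beside 21.5% and 23.1% of all genes. Of 296 microRNA genes, 38 were higher (12.8%) and 71 lower (24%) over the days, beside 30.5% and 25.2% of all genes. The snoRNA genes called in none of the 14 comparisons were Snora16a, Snora20, Snora2b, Snora3, Snora31, Snora33, Snora69, Snora75, Snord47, Snord57 and Snord96a. The share of all genes called in none was not counted, so this list has no baseline.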

How the data were processed

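The labels' protocols give RNeasy Mini columns for RNA of the sorted cells, the Ambion WT Expression kit for amplification and Affymetrix labelling reagents for hybridisation. The snoRNA genes were short, from 53 bases for Snord37 to 205 for Snora73a and Snora73b. How much RNA of such lengths the columns kept was not measured, so a change in signal need not be one in snoRNA amount. The submitters' processing notes name RMA and affy 1.44.0, and the authors deposited the RMA values in log2 units (23305 probe sets, values from 4.0 to 15.31). Raw intensities were not used here. RMA as usually run aligns the arrays' distributions, so a shift of all RNA together would not be seen. The number of arrays limits the precision.

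The platform annotation gave 1 symbol to 20728 probe sets, several to 1174 and none to 1403. Of several probe sets of a gene the one with the highest mean was used, which left 19296 genes. In limma 3.58.1 (R 4.3.3), 8 group means were estimated per gene from the 21 arrays, which left 13 residual degrees of freedom. P-values are two-sided, adjusted by Benjamini-Hochberg over all 19296 genes within each of 14 comparisons, and called at an adjusted p under 0.05. Errors of differences are moderated standard errors. The fit was tested on simulated data with known changes.

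The members, gene lists and naming rule (members with the largest called changes per comparison, up to 4 called each way and 2 not called per list) were chosen with earlier results of these data known. Hosts were assigned by span without strand, although a same-strand rule was planned, because the RefSeq table (GRCm38.p6) gives no strand for snoRNAs. snoRNA sequences were not used here. Alternatives were quantile, cyclic loess and median scaling, a filter on dim genes, averaging of probe sets per gene, other moderation, a replicate block, a fit that drops E13.5, and omission of every array in turn. A few host genes are not reported here.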

Additional observations from a re-analysis of the deposited data

Results flagged for a closer look

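A test of the difference between the sorts in their change from E12.5 to E15.5 set 2 snoRNA genes apart. For Snord118 the change in FVF+ cells exceeded that in FVF- cells by 2.53 ± 0.75 (SE, limma adjusted p = 0.0246): it was 1.37 in FVF+ cells and -1.16 in FVF- cells. Its within-group SD, 0.70, was among the widest of the snoRNA genes. For Snord53 the difference of changes was 1.20 ± 0.28 (adjusted p = 0.0066), from 0.45 in FVF+ cells and -0.75 in FVF- cells, with a within-group SD of 0.25. Groups of 2 or 3 arrays were not tested for single outlying samples.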

How the results depend on the processing

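Leaving out 1 array at a time moved most counts of snoRNA genes. Over the mean of the days, higher calls ranged from 2 to 7 and lower calls from 4 to 14. At E12.5 they ranged from 0 to 1 and from 0 to 3, at E13.5 from 0 to 8 and from 0 to 3, at E14.5 from 0 to 1 and from 9 to 25, and at E15.5 from 2 to 6 and from 0 to 2. From E12.5 to E15.5, rises ranged from 1 to 17 and falls from 2 to 6 in FVF+ cells, and rises from 0 to 2 and falls from 1 to 7 in FVF- cells. The interaction ranged from 1 to 4 higher and from 0 to 1 lower. FVF+ steps ranged from 0 to 0 calls at E13.5, 0 to 1 falls at E14.5, and 2 to 15 rises and 1 to 3 falls at E15.5. FVF- steps ranged from 0 to 1 rises and 0 to 2 falls at E13.5, 2 to 10 rises at E14.5, and 2 to 7 falls at E15.5.

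Of the other settings, cyclic loess gave 3 higher for the mean of the days, 1 higher at E12.5, 2 lower at E15.5, and 1 fall at E13.5 and 3 falls at E15.5 in the FVF- steps. Quantile normalization gave 1 higher at E12.5, and 1 fall at E13.5 and 7 rises at E14.5 in the FVF- steps. Median centring gave 5 lower for the mean of the days. The filter on dim genes (8.77 or more in a group mean, 42 of 50 members) gave 1 higher and 2 lower at E12.5, 1 higher at E13.5, 0 lower at E15.5, 2 falls in FVF+ cells over time, 1 fall in the last FVF+ step, and 1 and 2 falls in the first and last FVF- steps; fewer genes were tested. Without the E13.5 arrays there were 14 lower for the mean of the days, 2 lower at E15.5 and 16 rises in FVF+ cells. The 22 lower calls at E14.5 stayed within 20 to 26 under the 8 settings that kept every E14.5 array. Averaging the probe sets of each gene turned the FVF+ change of Taf1d over time from 0.38 to -0.18 (adjusted p = 0.304). Of 150 results for a single gene in a comparison, taken under all settings, 2342 values kept their side of the threshold, 299 lost it, 44 gained it and 1 reversed. The cause of these moves was not tested, apart from the fewer genes or arrays named.

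Whether the labels' replicate numbers pair the samples is not given. Deviations of same-numbered arrays of a day correlated from -0.37 to 0.49 over all genes, and those of other-numbered arrays from -0.54 to 0.58. Within groups of 2 or 3 arrays the deviations offset each other, so these correlations cannot decide whether same-numbered samples were paired. With the replicate block, the mean of the days gave 3 higher, E12.5 gave 1 higher, E13.5 gave 1 higher and 1 lower, E14.5 gave 0 higher, E15.5 gave 2 lower, and the first and last FVF- steps gave 1 and 3 falls. Groups of 2 or 3 arrays and the wide replicate spread of snoRNA signals limit what these counts can show.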
